A study of Mus musculus with 10 samples.

Results

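The Ly6 surface antigens are small cell surface proteins, most of them tied to the membrane by a GPI (glycosylphosphatidylinositol) lipid anchor, and 6 of their mouse genes are described here: Ly6c1, Ly6c2, Ly6a, Ly6e, Ly6k and Ly6i. They were matched by symbol among 45706 genes measured by RNA sequencing in 10 libraries of mouse spleen cells, and all 6 were in the table. The set was selected on a measured value, the much lower Ly6c1 level in Cd47ΔT T cells, so T cell values of these genes are given as a description and without a test. T cells came from Cd47ΔT mice (2 libraries), in which the genotype's name places the loss of Cd47 in T cells, and from Cd47f/f mice (2 libraries), which carry floxed Cd47. cDC2s, the type 2 subset of dendritic cells, which display antigen to T cells, came from Cd47ΔT mice (3 libraries) and Cd47f/f mice (3 libraries). The floxed allele is thus named for the controls too. The sources used here name neither the Cre line, the sorting nor the mouse ages, and they do not say whether each library is a separate mouse. Values are TPM, transcript levels per length scaled so that every library sums to 1000000, which leaves no record of sequencing depth.

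Ly6 proteins share a folded domain held by disulfide bonds, and in the mouse many of their genes sit side by side on chromosome 15. Ly6c1 and Ly6c2 together encode Ly-6C, which marks inflammatory monocytes, plasma cells and antigen-experienced CD8 T cells, and Ly6c1 is also used as a marker of endothelial cells. Ly6a encodes Sca-1, known from blood stem cells and activated T cells, and Ly6a and Ly6e are both inducible by interferons. Ly6e also limits entry of several viruses into cells, Ly6k is best known for a role in sperm, and Ly6i is a close relative of Ly6a and Ly6c.

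In the GRCm38 build with GENCODE M21 annotation, Ly6c1 (ENSMUSG00000079018) lies at chr15:75044018-75048830 and Ly6c2 (ENSMUSG00000022584) at chr15:75108158-75111970, both on the minus strand and 59327 bases apart. Their coding sequences are shown first, since the main contrast among the 6 genes is between these neighbours and rests on telling their reads apart. The first 300 of 396 bases are printed, from the longest coding transcript of each gene in GENCODE M21, and capitals mark bases that differ (7 in this stretch, 9 in all).
Ly6c1 coding sequence: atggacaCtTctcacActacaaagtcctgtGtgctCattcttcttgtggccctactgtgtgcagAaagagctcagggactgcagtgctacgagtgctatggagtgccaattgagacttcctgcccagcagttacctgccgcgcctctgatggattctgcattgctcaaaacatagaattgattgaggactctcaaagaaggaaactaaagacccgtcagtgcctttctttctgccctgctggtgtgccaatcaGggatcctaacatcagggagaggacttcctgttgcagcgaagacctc
Ly6c2 coding sequence: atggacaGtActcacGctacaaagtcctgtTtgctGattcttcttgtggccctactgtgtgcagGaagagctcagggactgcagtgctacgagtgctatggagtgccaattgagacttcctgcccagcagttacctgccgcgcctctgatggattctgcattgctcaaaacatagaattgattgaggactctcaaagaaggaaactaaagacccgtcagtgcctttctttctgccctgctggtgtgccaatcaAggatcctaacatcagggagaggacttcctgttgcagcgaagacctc
The coding sequences were 97.7% identical, and the longest run without a difference was 188 bases. Of the 795 stretches of 50 bases in the Ly6c1 transcript, 292 (36.7%) occur unchanged in another gene's transcripts, 252 of them in Ly6c2. For Ly6c2 it was 255 of 773 (33.0%), for Ly6a 10% and for Ly6i 4.97%, while Ly6e and Ly6k had 0 shared stretches. How the authors' counting divided reads from shared stretches is uncertain, so the sum of Ly6c1 and Ly6c2 is given beside each of them. Identity of the other coding sequences to Ly6c1 was 82.0% for Ly6a, 81.7% for Ly6i, 50% for Ly6e and 46.5% for Ly6k.

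The regions before the start sites of both genes differed more, and are shown because the genes moved in opposite directions. Both are on the minus strand of GRCm38.p6 (RefSeq), at chr15:75048838-75049087 for Ly6c1 and chr15:75111972-75112221 for Ly6c2. The last base printed is the one before the start site. Within the aligned part, capitals mark bases that differ from the other gene or face a gap in it. Bases beyond the aligned part, such as the first bases of the Ly6c1 region, have no partner and are in lower case.
Ly6c1 upstream region: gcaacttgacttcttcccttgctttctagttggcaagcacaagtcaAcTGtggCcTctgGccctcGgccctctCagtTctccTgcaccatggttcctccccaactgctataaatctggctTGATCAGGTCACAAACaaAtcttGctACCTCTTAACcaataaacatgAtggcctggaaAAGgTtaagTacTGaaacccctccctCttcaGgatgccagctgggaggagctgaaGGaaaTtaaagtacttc
Ly6c2 upstream region: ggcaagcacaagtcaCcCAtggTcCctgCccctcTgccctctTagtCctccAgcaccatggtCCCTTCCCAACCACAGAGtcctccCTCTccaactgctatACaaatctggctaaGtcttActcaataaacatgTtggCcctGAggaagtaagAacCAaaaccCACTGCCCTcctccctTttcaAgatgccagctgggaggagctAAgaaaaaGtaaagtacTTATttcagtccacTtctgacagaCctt
RefSeq windows from 250 bases before to 50 bases after a start site were at hand for 2 of the 6 genes, Ly6c1 and Ly6c2, which have 2 windows each. Over the 300-base windows of the most upstream start sites, 211 of 311 alignment columns, with gaps counted as columns, were identical (67.8%). Searched on both strands, the interferon-stimulated response element core (GAAANNGAA) and the interferon gamma activated site (TTCNNNGAA) had 0 matches in these windows, against 8.55% and 8.29% of all 32817 promoter windows holding one. The RUNX motif TGTGGT matched the other strand of the Ly6c2 window at position -179, within a stretch of capitals, and is held by 16.8% of all windows. TATAAA, the TATA box letters, occurred in the Ly6c1 window at position -143 and in 13.6% of all windows. A match describes letters only and says nothing of binding.

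Ly6c1 was far lower in Cd47ΔT T cells. It had 6.53 and 6.37 TPM in Cd47ΔT T cells, against 104 and 83.3 TPM in Cd47f/f T cells. The means were 6.45 ± 0.113 TPM in Cd47ΔT and 93.5 ± 14.4 TPM in Cd47f/f (SD, n = 2 each), a 14.5-fold lower level in Cd47ΔT, or a log2 fold change of TPM + 1 of -3.66. The genotypes did not overlap, and the Cd47ΔT libraries were nearly equal. By rank of TPM among all genes, Ly6c1 stood at 9155 and 9330 in Cd47ΔT T cells, against 1042 and 1552 in Cd47f/f T cells. Among the 12453 genes tested in T cells, 0.875% were called lower (limma, adjusted p under 0.05) and 11.9% were lower without overlap, and because the gene was chosen by this contrast nothing is read from that.

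Its neighbour Ly6c2 was higher. Ly6c2 had 1707 and 1738 TPM in Cd47ΔT T cells, against 595 and 738 TPM in Cd47f/f T cells. That is 1722 ± 22.3 TPM in Cd47ΔT and 666.8 ± 100.9 TPM in Cd47f/f (SD, n = 2 each), 2.58-fold higher, with a log2 fold change of 1.38 and no overlap. With a rank of 111 and 110 in Cd47ΔT, against 182 and 153 in Cd47f/f, it was among the most abundant transcripts of these T cells. Counted as 1 gene, Ly6c1 and Ly6c2 summed to 1713 and 1745 TPM in Cd47ΔT T cells, against 699 and 821 TPM in Cd47f/f T cells. The pair's sum was thus 2.27-fold higher in Cd47ΔT, and the lower Ly6c1 level took little from it. Ly6c1 made up 0.381% and 0.365% of the pair's TPM in Cd47ΔT T cells, against 14.8% and 10.1% in Cd47f/f T cells.

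**Figure D1:**
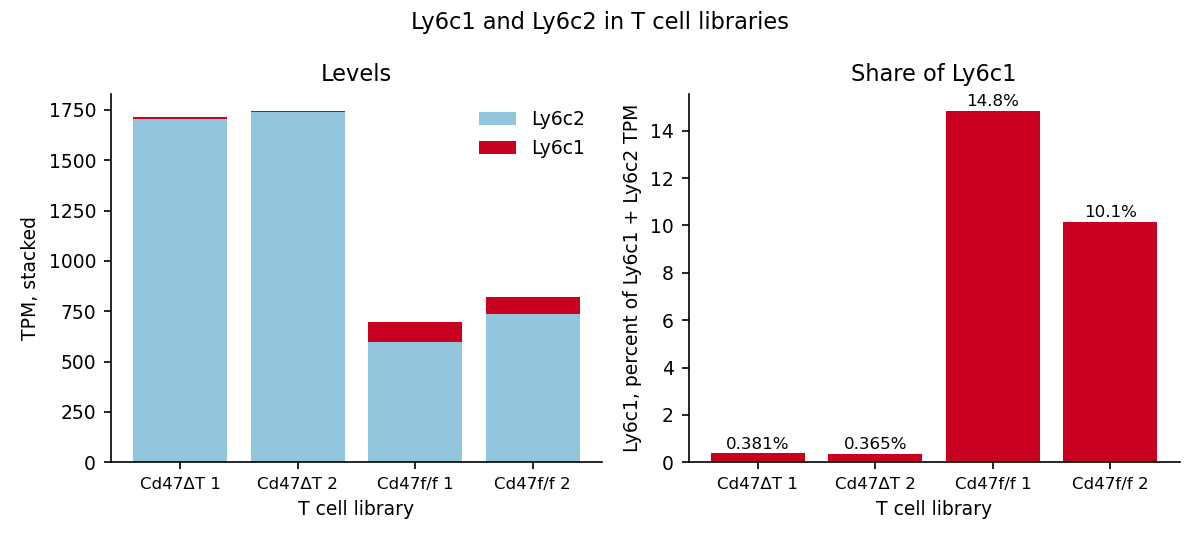
Left, TPM of Ly6c2 (blue) and Ly6c1 (red) stacked in each T cell library; right, Ly6c1 as a percent of the pair's TPM, with Cd47ΔT libraries on the left of each panel. The pair's sum is 1713 and 1745 TPM in Cd47ΔT and 699 and 821 TPM in Cd47f/f, while the Ly6c1 share is 0.381% and 0.365% in Cd47ΔT and 14.8% and 10.1% in Cd47f/f.

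The interferon-inducible members Ly6e and Ly6a were modestly higher in Cd47ΔT T cells. Ly6e (ENSMUSG00000022587, chr15:74955051-74959905, plus strand) had 2112 and 2059 TPM in Cd47ΔT T cells, against 1498 and 1411 TPM in Cd47f/f T cells, 1.43-fold higher with a log2 fold change of 0.52. It was the most abundant of the 6 genes in each of the 10 libraries. Ly6a (ENSMUSG00000075602, chr15:74994877-74998031, minus strand) had 333 and 240 TPM in Cd47ΔT T cells, against 186 and 150 TPM in Cd47f/f T cells, 1.70-fold higher with a log2 fold change of 0.75. Neither gene overlapped between genotypes, but the gap for Ly6a, between 240 TPM in Cd47ΔT and 186 TPM in Cd47f/f, was smaller than the distance between the Cd47ΔT libraries.

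The remaining members were scarce in T cells. Ly6i (ENSMUSG00000022586, chr15:74979534-74983430, minus strand) had 1.21 and 1.32 TPM in Cd47ΔT T cells, against 0.12 and 0.28 TPM in Cd47f/f T cells, a log2 fold change of 0.92. It reached the filter of 1 TPM in 2 libraries through the Cd47ΔT libraries alone. Ly6k (ENSMUSG00000044678, chr15:74796874-74799986, minus strand) had 3.46 and 9.81 TPM in Cd47ΔT T cells, against 7.57 and 3.09 TPM in Cd47f/f T cells. Its genotypes overlapped, and each held a high and a low library. The long non-coding gene Gm17189 overlaps Ly6k on the opposite strand and averaged 0.03 TPM in Cd47ΔT and 0.075 TPM in Cd47f/f T cells. Of the 6 genes, 4 were higher and 1 lower without overlap, where 37% of all tested T cell genes were higher and 11.9% lower without overlap. Nothing is read from that count, since the T cell contrast was used to choose the genes and the filter set the gap of Ly6i.

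The stated reason for choosing the genes names no cDC2 value, but the choice was made with earlier results of these data known. In cDC2s the 3 members that could be tested were all lower in Cd47ΔT, and 0 of the 3 passed the threshold. Ly6i had 0, 0.53 and 0.27 TPM in Cd47ΔT cDC2s, against 2.67, 2.72 and 5.18 TPM in Cd47f/f cDC2s. Every Cd47ΔT library was below every Cd47f/f library, with a log2 fold change of -1.81 ± 0.35 (SE; limma, adjusted p = 0.0804; unadjusted p = 0.000878). Ly6i passed the filter in cDC2s through the Cd47f/f libraries alone, so it had to differ.

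Ly6e had 527, 609 and 464 TPM in Cd47ΔT cDC2s, against 669, 644 and 742 TPM in Cd47f/f cDC2s. The means were 533 ± 72.7 TPM in Cd47ΔT and 685 ± 50.6 TPM in Cd47f/f (SD, n = 3 each), without overlap, with a log2 fold change of -0.37 ± 0.12 (SE; limma, adjusted p = 0.237; unadjusted p = 0.0150). Ly6a had 1.16, 1.05 and 0.70 TPM in Cd47ΔT cDC2s, against 1.74, 5.0 and 1.4 TPM in Cd47f/f cDC2s, a log2 fold change of -0.80 ± 0.40 (SE; limma, adjusted p = 0.451; unadjusted p = 0.0839). The genotypes did not overlap, and Cd47f/f library 2 stood highest. Of all 12058 genes tested in cDC2s, 0.381% were called lower and 0.249% higher, 9.03% were lower at an unadjusted p under 0.05 and 13.5% were lower without overlap. Ly6c1, Ly6c2 and Ly6k did not pass the filter there. Ly6c1 had 0, 0.71 and 0 TPM in Cd47ΔT cDC2s and was listed at 0 in every Cd47f/f cDC2 library. Ly6c2 did not exceed 0.32 TPM in Cd47ΔT or 0.08 TPM in Cd47f/f, and Ly6k was listed at 0 in Cd47ΔT and reached 0.90 TPM in 1 Cd47f/f library.

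**Figure D2:**
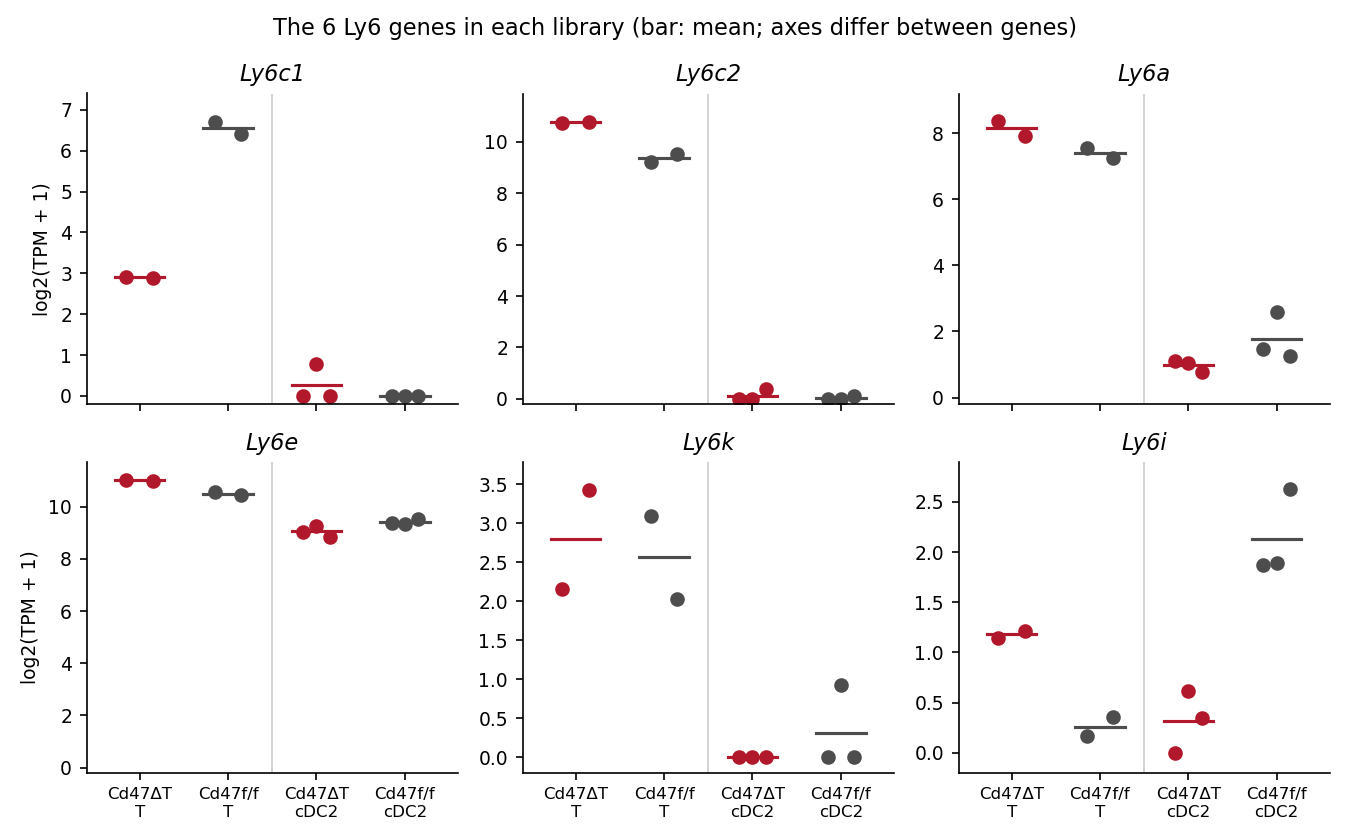
Level of each gene as log2(TPM + 1) in every library, with Cd47ΔT in red left of Cd47f/f in grey for T cells and then for cDC2s; the bars are means and the axes differ between genes. Ly6c1 is the gene with lower Cd47ΔT values in T cells (6.53 and 6.37 TPM against 104 and 83.3 TPM), and Ly6e, Ly6a and Ly6i lie higher in Cd47ΔT T cells and lower in Cd47ΔT cDC2s.

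Set in order over the 4 groups, Ly6e stood highest in Cd47ΔT T cells, then in Cd47f/f T cells, in Cd47f/f cDC2s and in Cd47ΔT cDC2s, and no neighbours in that order overlapped. Ly6c2 and Ly6a had the same order at the T cell end and were at or under 5.0 TPM in every cDC2 library, and Ly6c2 overlapped between the cDC2 groups. Ly6c1 ran from Cd47f/f T cells over Cd47ΔT T cells to cDC2s. Ly6i ran another way, highest in Cd47f/f cDC2s, then in Cd47ΔT T cells, with Cd47ΔT cDC2s and Cd47f/f T cells overlapping at the low end. Ly6k was higher in every T cell library than in any cDC2 library and overlapped between genotypes in both. T cell and cDC2 libraries were made with different kits, so cell type and kit cannot be told apart in these levels. Summed over the 6 genes, T cells held 4163 and 4054 TPM in Cd47ΔT, against 2391 and 2386 TPM in Cd47f/f. The sum in cDC2s, nearly all of it Ly6e, was lower in Cd47ΔT and did not overlap between genotypes.

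The cluster around these genes was mostly silent. Between Psca and Gpihbp1 on chromosome 15 the annotation places 46 genes over 884.6 kb, of which 10 reached 1 TPM in any T cell library and 4 in any cDC2 library. Apart from the 6 genes, these were Ly6d, Lynx1, Them6 and the pseudogene I830127L07Rik. Them6 averaged 27.3 TPM in Cd47ΔT and 29.0 TPM in Cd47f/f T cells. I830127L07Rik, which shares 50-base stretches with Ly6c2, Ly6a and Ly6i, averaged 6.99 TPM in Cd47ΔT and 0.955 TPM in Cd47f/f T cells, a log2 fold change of 2.17 without overlap. Ly6g, the neutrophil antigen gene that lies beyond Ly6c2, was listed at 0 in all 10 libraries.

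**Figure D3:**
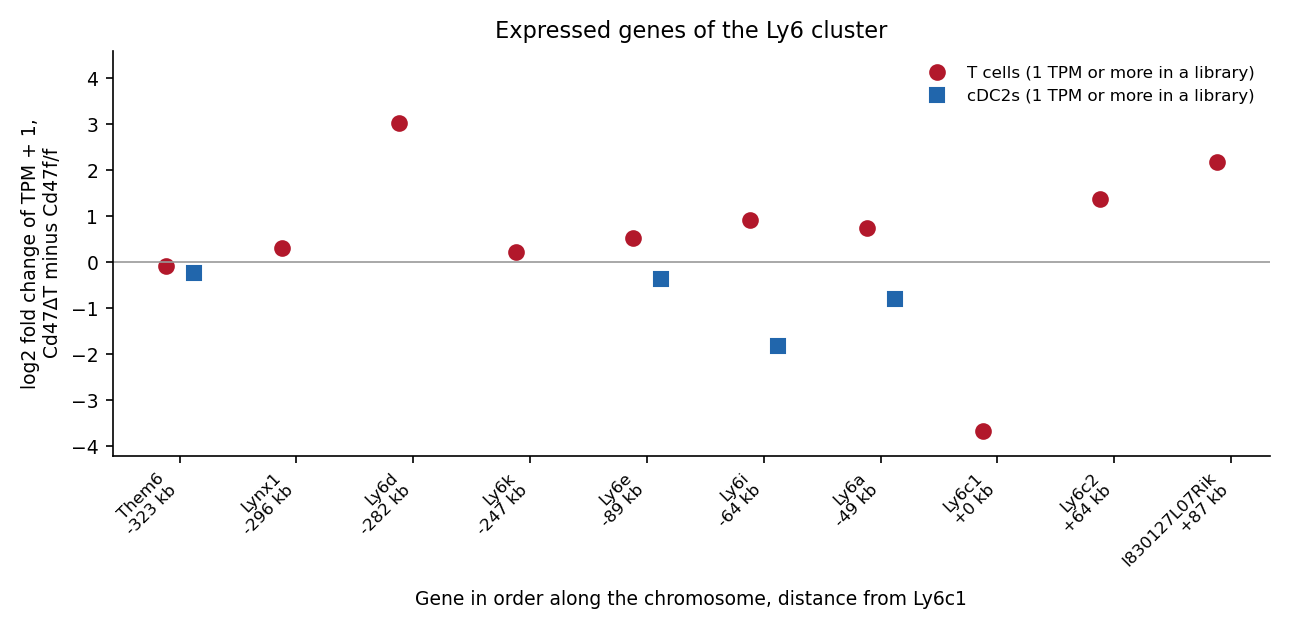
Log2 fold change of TPM + 1, Cd47ΔT minus Cd47f/f, for the cluster genes at 1 TPM or more in a library of that cell type (red circles, T cells; blue squares, cDC2s), in order along the chromosome with the distance from Ly6c1 in kb. Ly6c1 at -3.66 lies between expressed neighbours at 0.75 (Ly6a) and 1.38 (Ly6c2), and the cDC2 values lie below 0.

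Of 40 further genes listed for the wider Ly6/uPAR family, 36 were in the table, 5 were tested in T cells and 1 in cDC2s. Ly6d, a surface antigen of B cell precursors and of plasmacytoid dendritic cells, rose to 17.7 and 47.6 TPM in Cd47ΔT T cells, against 3.11 and 2.33 TPM in Cd47f/f T cells, a log2 fold change of 3.03 ± 0.44 (SE; limma, adjusted p = 0.0134). It was the 1 family gene called, where 8.5% of all T cell genes tested were called higher, and the call was lost without either Cd47f/f library (adjusted p = 0.0638 and 0.0515). Lypd6b had 9.96 and 9.2 TPM in Cd47ΔT T cells, against 15.3 and 17.0 TPM in Cd47f/f T cells, a log2 fold change of -0.70 ± 0.18 (limma, adjusted p = 0.0677). Plaur, the urokinase receptor, had 6.27 and 9.96 TPM in Cd47ΔT T cells, against 4.02 and 3.72 TPM in Cd47f/f T cells (log2 fold change 0.87; limma, adjusted p = 0.102). In cDC2s Plaur averaged 4.87 ± 0.865 TPM in Cd47ΔT and 4.27 ± 0.72 TPM in Cd47f/f (SD, n = 3 each; limma, adjusted p = 0.828). Ly6g5b (log2 fold change 0.60) and Lynx1 (0.31) did not pass the threshold in T cells (limma, adjusted p = 0.223 and 0.586). Cd59b and Cd177 each reached 1 TPM in 1 Cd47ΔT T cell library, at 1.04 and 1.16 TPM, and were not tested.

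Interferon-response genes were followed because Ly6a and Ly6e belong to them. In T cells, 7 of 30 genes listed for the type I interferon response were called higher and 0 lower (23.3%, against 8.5% of all genes called higher), with a median log2 fold change of 0.51 against 0.10 for all genes. Oas1a, a sensor enzyme for viral RNA, rose to 36.3 and 28.9 TPM in Cd47ΔT, against 10.4 and 9.53 TPM in Cd47f/f (log2 fold change 1.61 ± 0.19; limma, adjusted p = 0.00784). Mx1, an antiviral GTPase, rose to 20.4 and 16.9 TPM in Cd47ΔT, against 6.20 and 5.90 TPM in Cd47f/f (log2 fold change 1.47 ± 0.19; limma, adjusted p = 0.0111). The count depended on the library set, with 2 genes called without either Cd47ΔT library and 12 without Cd47f/f library 2. In the interferon gamma list 2 of 19 tested genes were called higher, the chemokine Cxcl10 (log2 fold change 2.29) and the GTPase Gbp3 (0.90), with a median of 0.17. Among interferons and their receptors 1 of 8 was called lower (12.5%, against 0.875% of all genes called lower) and 0 higher. It was the interferon gamma receptor chain Ifngr2, at 12.2 and 14.1 TPM in Cd47ΔT against 22.0 and 25.7 TPM in Cd47f/f (log2 fold change -0.81; limma, adjusted p = 0.0424).

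In cDC2s the same list lay on the other side of 0. Of the 30 type I genes, 28 had a log2 fold change below 0, 21 were lower without overlap (70%, against 13.5% of all genes), and the median was -0.64 against -0.07 for all genes. The threshold was passed by 3 of 30 (10%, against 0.381% of all genes called lower), Oasl2, Ifit3 and Irf7. Oasl2, an antiviral protein of the oligoadenylate synthetase family, fell to 20.3, 30.3 and 25.3 TPM in Cd47ΔT, against 76.8, 70.6 and 55.2 TPM in Cd47f/f (log2 fold change -1.39 ± 0.18; limma, adjusted p = 0.0262). Ifit3 fell to 43.1, 48.1 and 31.2 TPM in Cd47ΔT, against 95.7, 95.2 and 91.7 TPM in Cd47f/f (log2 fold change -1.21 ± 0.16; limma, adjusted p = 0.0266). Irf7, the factor that amplifies interferon production, averaged 54.2 ± 8.83 TPM in Cd47ΔT and 111 ± 10.3 TPM in Cd47f/f (SD, n = 3 each; limma, adjusted p = 0.0293). With any 1 of the 6 cDC2 libraries left out, 0 of the 30 were called. Of 19 interferon gamma genes 1 was called lower, the GTPase Gbp4 (log2 fold change -1.11; limma, adjusted p = 0.0292), and that call too was lost with any library left out.

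Genes that build and trim the GPI anchor, on which Ly6 proteins depend to reach the surface, stayed close to all genes. By limma 0 of 28 were called in T cells (2 at an unadjusted p under 0.05) and 0 of 28 in cDC2s (0 at an unadjusted p under 0.05). Their medians were 0.11 in T cells and -0.02 in cDC2s on the log2 scale. The smallest p in T cells belonged to Pgap2, which remodels the anchor's lipid, at 30.8 ± 4.18 TPM in Cd47ΔT and 19.7 ± 4.22 TPM in Cd47f/f (SD, n = 2 each; limma, adjusted p = 0.129).

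**Figure D4:**
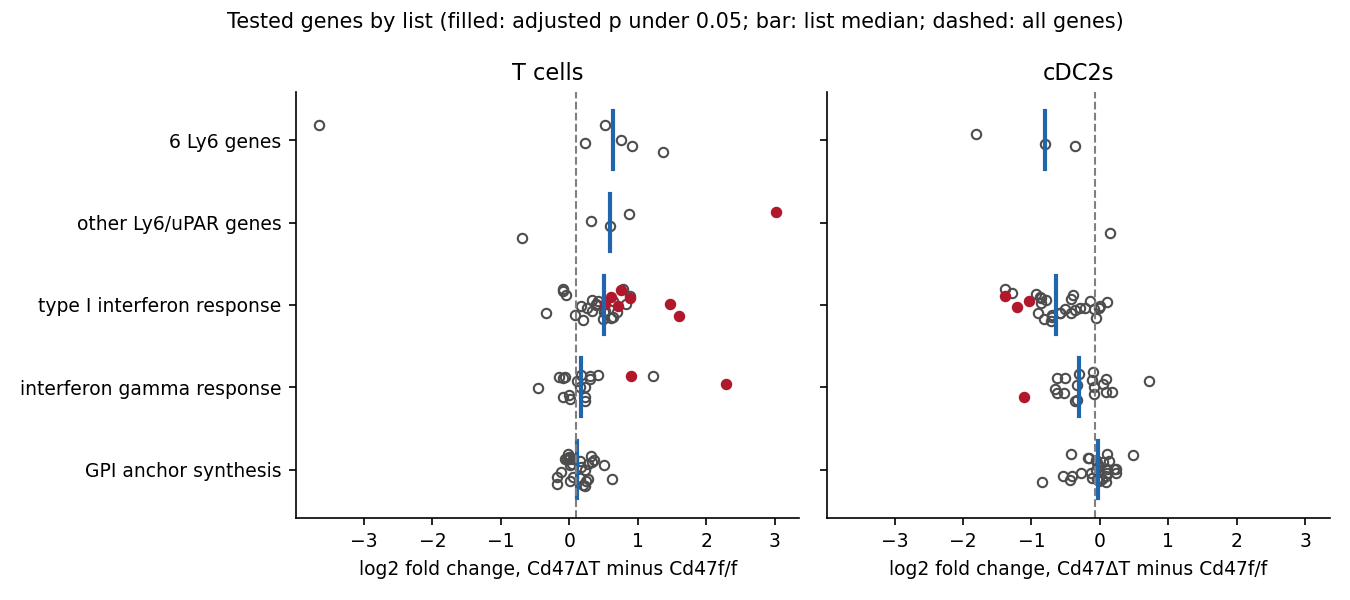
Log2 fold change, Cd47ΔT minus Cd47f/f, of each tested gene by list in T cells (left) and cDC2s (right); filled points passed the threshold, blue bars are list medians, dashed lines the median of all genes, and the 6 Ly6 genes are drawn open in T cells because they were not tested there. The type I interferon median is 0.51 in T cells and -0.64 in cDC2s, and the GPI anchor median is 0.11 and -0.02.

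Ly-6C is a known surface marker of memory CD8 T cells, so a list of genes of that state was followed in T cells. Of 18 listed CD8 memory and effector genes 11 were called higher (61.1%, against 8.5% of all genes) and 0 lower, with a median log2 fold change of 1.18 against 0.10 for all genes. Klrg1, an inhibitory receptor of effector cells, rose to 90.7 and 75.8 TPM in Cd47ΔT, against 8.11 and 8.06 TPM in Cd47f/f (log2 fold change 3.21 ± 0.16; limma, adjusted p = 0.00111). Nkg7, a protein of cytotoxic granules, rose to 834 and 848 TPM in Cd47ΔT, against 371 and 421 TPM in Cd47f/f (log2 fold change 1.09 ± 0.10; limma, adjusted p = 0.00475). Of 14 naive T cell genes 6 were called lower (42.9%, against 0.875% of all genes), among them the transcription factor gene Tcf7, which fell to 616 and 645 TPM in Cd47ΔT against 975 and 1039 TPM in Cd47f/f (log2 fold change -0.67 ± 0.09; limma, adjusted p = 0.0118). Without Cd47ΔT library 1 the naive count was 0, and without Cd47ΔT library 2 it was 2. These are bulk libraries, in which a different number of cells of a type and a different amount of RNA per cell cannot be told apart. NK cell markers were called higher in the same comparison (8 of 8), and which cells the listed genes or Ly6c2 came from was not tested.

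Markers of other spleen cells that carry Ly6 antigens moved with the genotype in T cells. Monocyte markers summed to 277 and 478 TPM in Cd47ΔT, against 35.1 and 75.5 TPM in Cd47f/f, with 8 of 9 tested called higher, where 8.5% of all T cell genes were called higher, and 0 of 10 at 0. Plasma cell markers summed to 445 and 483 TPM in Cd47ΔT, against 109 and 128 TPM in Cd47f/f (7 of 8 called), and NK cell markers to 76.2 and 133 TPM in Cd47ΔT, against 9.32 and 15.6 TPM in Cd47f/f (8 of 8 called). For B cell markers the sums were 62.6 and 133 TPM in Cd47ΔT, against 16.2 and 19.8 TPM in Cd47f/f (6 of 6 called). Plasmacytoid dendritic cell markers summed to 106 and 143 TPM in Cd47ΔT, against 84.8 and 103 TPM in Cd47f/f, with 5 of 10 called higher, while Ccr9 (26.6 and 30.1 TPM in Cd47ΔT, against 36.2 and 41.5 TPM in Cd47f/f) and Pacsin1 (29.4 and 31.3 TPM in Cd47ΔT, against 33.5 and 40.2 TPM in Cd47f/f) were lower without overlap and were not called. Red pulp macrophage (188 and 294 TPM in Cd47ΔT, against 25.9 and 32.8 TPM in Cd47f/f; 10 of 10 called), neutrophil (36.0 and 106 TPM in Cd47ΔT, against 4.04 and 8.75 TPM in Cd47f/f; 4 of 6) and erythroid markers (85.9 and 173 TPM in Cd47ΔT, against 37.4 and 22.9 TPM in Cd47f/f; 3 of 6) were higher too. cDC2 markers summed to 49.7 and 76.7 TPM in Cd47ΔT, against 11.2 and 15.2 TPM in Cd47f/f T cells, with 6 of 7 called higher and Clec4a4 at 0 in Cd47f/f. Each of these sums was higher in Cd47ΔT library 2 than in library 1. Endothelial markers, relevant to Ly6c1, summed to 70.6 and 75.5 TPM in Cd47ΔT and 90.1 and 98.5 TPM in Cd47f/f, most of it Pecam1, which leukocytes also carry. Tie1 was at 0 in all T cell libraries and Emcn at 0 in Cd47f/f. Of 2 endothelial markers tested, 0 were called. Pecam1 was lower without overlap, and Stab2 lay the other way. Stab2 had 1.5 and 3.84 TPM in Cd47ΔT, against 0.13 and 0.36 TPM in Cd47f/f (limma, adjusted p = 0.0541). The part of these cells in the Ly6 values was not tested.

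In cDC2s, B cell markers summed to 106 to 155 TPM in Cd47ΔT and 211 to 264 TPM in Cd47f/f, most of it Cd22, which averaged 111 ± 26.8 TPM in Cd47ΔT and 211 ± 29.5 TPM in Cd47f/f (SD, n = 3 each). The B cell gene Ms4a1 lay the other way without overlap, at 10.2 ± 0.354 TPM in Cd47ΔT and 7.71 ± 1.01 TPM in Cd47f/f (SD, n = 3 each), and Cd79b overlapped. Neutrophil markers summed to 30.1 to 48.6 TPM in Cd47ΔT and 50.6 to 73.3 TPM in Cd47f/f, with 6 of 10 at 0, among them S100a8, S100a9 and Ngp. Most of it was Mmp9, averaging 30.8 TPM in Cd47ΔT and 57.4 TPM in Cd47f/f. Ltf lay the other way without overlap, averaging 2.68 TPM in Cd47ΔT and 0.273 TPM in Cd47f/f. NK cell markers summed to 32.2 to 35.6 TPM in Cd47ΔT and 18.8 to 22.6 TPM in Cd47f/f, with 5 of 8 at 0, among them Ncr1. Most of that sum was Klri2, averaging 28.5 TPM in Cd47ΔT and 16.8 TPM in Cd47f/f. The part of these cells in the cDC2 values was not tested either. T cell markers summed to 4691 and 4387 TPM in Cd47ΔT and 4393 and 4342 TPM in Cd47f/f T cells, and to 23.5 TPM or less in every cDC2 library. cDC2 markers summed to 1174 to 1259 TPM in Cd47ΔT and 1457 to 1594 TPM in Cd47f/f cDC2s, with 2 of 10 called lower, where 0.381% of all cDC2 genes were called lower. Cd47 itself had 40.4 and 51.7 TPM in Cd47ΔT T cells, against 138 and 233 TPM in Cd47f/f T cells, and averaged 148 ± 12.1 TPM in Cd47ΔT and 149 ± 11.5 TPM in Cd47f/f cDC2s (SD, n = 3 each).

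The genes whose log2 levels ran most like each member over the 10 libraries were sought among 9911 named protein-coding genes, where the points share 2 cell types and 2 kits. For Ly6c1 they were mt-Atp8, Selenop and Hsdl1 (Pearson r = 0.970, 0.964 and 0.963), each with a lower mean in Cd47ΔT than in Cd47f/f T cells. For Ly6c2 they were Glmp, Ldha and Gm45837 (r = 0.998, 0.998 and 0.997), and for Ly6e S100a10, Batf and Trappc4 (r = 0.994, 0.993 and 0.992). By rank the Ly6c2 values were lower (Spearman rho = 0.713, 0.75 and 0.863). Glmp and Ldha differed less between T cell genotypes than Ly6c2 did, averaging 147.6 and 551.5 TPM in Cd47ΔT against 124.7 and 463.8 TPM in Cd47f/f. Ly6a ran most like Dctn3, Rps27rt and Pfdn6, Ly6k like Gstt2, Gm11808 and Ppie, and Ly6i like Ralgds, Dusp6 and Hmga1b (r = 0.950, 0.946 and 0.931). S100a10, the gene nearest to Ly6e, averaged 894 TPM in Cd47ΔT and 502 TPM in Cd47f/f T cells, and 37.6 TPM in Cd47ΔT and 77.9 TPM in Cd47f/f cDC2s. Dusp6, close to Ly6i, averaged 18.9 TPM in Cd47ΔT and 15.7 TPM in Cd47f/f T cells, and 10.6 TPM in Cd47ΔT and 53.8 TPM in Cd47f/f cDC2s.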

How the data were processed

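The values are TPM per Ensembl gene, made by the authors for 45706 genes in 10 libraries and used as deposited. The submitters' processing notes name STAR, RSEM, DESeq2 and the GRCm38 build without versions. The annotation release and the strand setting of the counting were not found in the labels. TruSeq stranded mRNA libraries were made from T cells and SMART-seq stranded libraries from cDC2s, per the labels. GENCODE M21 gave symbols and positions to 98.8% of the identifiers.

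Each cell type was tested alone with limma 3.58.1 (lmFit, then eBayes with its trend option) under R 4.3.3, on log2(TPM + 1), two-sided, over genes that reached 1 TPM in 2 or more T cell libraries or in 3 or more cDC2 libraries. Adjustment was by Benjamini-Hochberg over all genes tested, and a gene was called under 0.05. Fold changes on that scale understate low genes. Since replicates are not labelled as separate mice, p-values may reflect technical spread only.

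The 6 genes and all lists were chosen with earlier results of these data known. Named were the 6 genes, family genes at 1 TPM in any library, up to 4 genes of smallest p per list, and 3 genes most like each member. Genes of the cluster were named after their values were seen. The settings varied were the pseudocount (0.1, 5), the filter (none, 5 TPM), the scaling (quantile, median-of-ratios, protein-coding genes), the variance trend (none, robust), the libraries fitted together (all of them, or each left out in turn) and a replicate block. The fit was tested on simulated data with 200 changed genes. Coding sequences were aligned with Biopython 1.88, and figures were drawn with matplotlib 3.10.9 in Python 3.11.15.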

Additional observations from a re-analysis of the deposited data

Results flagged for a closer look

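Of the 6 genes, 3 were tested in both cell types, Ly6a, Ly6e and Ly6i. In each of the 3 every Cd47ΔT library lay above every Cd47f/f library in T cells and below every one in cDC2s. That pattern was shown by 479 of the 10650 genes tested in both cell types (4.5%). Since its T cell part was used to choose the genes, nothing is read from the count. The log2 fold change in T cells minus that in cDC2s was 1.55 for Ly6a, 0.89 for Ly6e and 2.73 for Ly6i. These differences were not tested, since the T cell comparison was used to choose the genes. Ly6a had 333 and 240 TPM in Cd47ΔT T cells, against 186 and 150 TPM in Cd47f/f T cells, and 0.70 to 1.16 TPM in Cd47ΔT cDC2s, against 1.4 to 5.0 TPM in Cd47f/f cDC2s. Ly6e, the abundant gene of the 3, had 2112 and 2059 TPM in Cd47ΔT T cells, against 1498 and 1411 TPM in Cd47f/f T cells, and 464 to 609 TPM in Cd47ΔT cDC2s, against 644 to 742 TPM in Cd47f/f cDC2s. Ly6i was at 5.18 TPM or less in all libraries and passed the filter through 1 genotype in each cell type, so the filter itself set its pattern. Cell type and library kit cannot be told apart in this contrast.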

How the results depend on the processing

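In T cells, Ly6c1, Ly6c2, Ly6a, Ly6e and Ly6i kept their direction in every alternative, with log2 fold changes of -3.88 to -3.10 for Ly6c1, 1.22 to 1.53 for Ly6c2, 0.52 to 0.99 for Ly6a, 0.36 to 0.56 for Ly6e and 0.27 to 2.24 for Ly6i. Ly6k changed sign with quantile scaling (-0.11) and with libraries left out (-0.41 to 0.87), and Lynx1 with quantile scaling (-0.14). Quantile and median-of-ratios scaling moved the median of all T cell genes to -0.08 and -0.04, against 0.10 as deposited. Relative to that 0.10, Ly6e was higher by 0.42 and Ly6a by 0.65. In cDC2s, adjusted p ranged over 0.248 to 0.684 for Ly6a, 0.120 to 0.451 for Ly6e and 0.0141 to 0.221 for Ly6i, and members called were 1 in 1 fit of all libraries (Ly6i, which passed the filter through Cd47f/f alone) and 0 in all other settings.

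Wider family genes called in T cells were 0 with no filter, 2 with quantile scaling, with median-of-ratios scaling and with 1 fit of all libraries, 3 with the replicate block, and 0 to 1 with a library left out, against 1. With no filter, genes called higher and lower were 14 and 1 in T cells and 2 and 4 in cDC2s, CD8 memory genes numbered 1, and no gene (0) of the interferon or naive lists was called. T cell calls, 1058 higher and 109 lower, were 679 higher with a 5 TPM filter, 655 and 336 with quantile scaling, 264 lower with median-of-ratios scaling and 1986 and 310 with the replicate block, and ranged over 585 to 1439 and 51 to 140 with a library left out. cDC2 calls, 30 higher and 46 lower, were 7 and 5 with no variance trend, 68 and 103 when all libraries were fitted together and 3 and 1 with the replicate block, and ranged over 0 to 9 and 0 to 5 with a library left out. Type I interferon genes called higher in T cells (7) were 4 with a pseudocount of 0.1, with protein-coding scaling and with no variance trend, 3 with quantile or median-of-ratios scaling, 13 with the replicate block and 2 to 12 with a library left out. Interferon gamma genes (2) were 1 with quantile scaling and 1 to 3 with a library left out. Naive genes called lower (6) were 3 in 1 fit of all libraries, 0 with no variance trend, 10 with the replicate block and 0 to 7 with a library left out. In cDC2s, type I genes called lower (3) and interferon gamma genes (1) were 0 with no variance trend, with the replicate block and with any library left out, and 9 and 2 in 1 fit of all libraries, while protein-coding scaling left 0 interferon gamma genes. The causes were not tested. The fit without a filter adjusts over more genes, and leaving a library out leaves fewer samples. In cDC2s, deviations of same-numbered libraries correlated at -0.0438, 0.0591 and 0.119, and those of unlike-numbered libraries at -0.137 to 0.119. In T cells same-numbered libraries correlated at 0.19 (-0.19 for unlike numbers), where 2 numbers are too few to show a pairing. The replicate block is therefore given as an alternative only.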
